A study of Mus musculus with 18 samples.

Results

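The hippocampus and the frontal cortex of WT mice were compared through the 3 WT hippocampus libraries and the 3 WT frontal cortex libraries, which are 6 of the 18 RNA sequencing libraries of the study. They were chosen by their tissue and genotype labels, with no measured value. The study sequenced mRNA of Pcm1-/- mice, which carry a gene trap in the gene of a centriolar satellite protein, and of WT littermates, in 3 brain regions. The question taken up here is which genes and gene programs separated the hippocampus from the frontal cortex in animals without the mutation.

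Both groups were WT mice labelled C57 Bl6J and Adult, with no treatment, and the labels name no allele but WT. The exact age was not given. Each library came from a dissected piece of tissue, so neurons, glia, vessels and any adjoining structure taken with the piece were sequenced together. The same 3 animals gave both tissues, and libraries with the same replicate number shared an animal and a sequencing lane (lanes 3, 4 and 5 for replicates 1, 2 and 3). Replicate 2 was male in both tissues, with 1437 and 1628 reads on the Y-linked gene Ddx3y against 0 to 3 in the other 4 libraries. Values given in sets of 3 below are replicates 1, 2 and 3 in that order.

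The hippocampus is an older, simpler cortex folded against the wall of the lateral ventricle. Its excitatory neurons are the granule cells of the dentate gyrus, which send mossy fibres to the mossy cells and to CA3, and the pyramidal cells of the CA fields. The frontal cortex is layered neocortex, whose upper layers connect cortical areas with each other and whose deep layers send axons to the thalamus, striatum, brainstem and spinal cord. The fimbria (white matter), the choroid plexus (the epithelium that makes cerebrospinal fluid), the ciliated ependyma of the ventricle wall and the thalamus and habenula all adjoin the hippocampus.

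Between 25721784 and 29716439 reads were counted on genes in these 6 libraries, which was 86.8% to 89.1% of the reads in the count files. Transcripts of the mitochondrial genome took 3.65% to 7.55% of the gene counts, with the highest share in hippocampus replicate 1. Log2 CPM (the count of a gene per TMM-scaled library size, as counts per 1 M reads) correlated across genes at 0.983 to 0.990 between libraries of a tissue (6 pairs) and at 0.948 to 0.967 between tissues (9 pairs). The gene whose mutation the study is about, Pcm1 itself, did not separate the tissues, with 119.9, 133 and 149 CPM in the frontal cortex and 142, 138 and 145 CPM in the hippocampus (log2 difference 0.10 ± 0.09, edgeR adjusted p = 0.48).

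Each gene was tested with edgeR's quasi-likelihood test on 3 libraries per tissue, without pairing them by animal. Its log2 difference is hippocampus minus frontal cortex with its standard error. A gene is called where its Benjamini-Hochberg adjusted p is under 0.05. Of 17545 genes tested, 4944 (28.2%) differed between the tissues by this rule. The hippocampus was higher for 2523 genes (14.4%) and lower for 2421 (13.8%). The counts of list members below stand against these shares of all genes. A difference of at least 2-fold was reached by 1212 of the higher genes (6.91% of genes tested) and by 782 of the lower genes (4.46%). At 8-fold the sides were less even, with 304 genes higher and 101 lower. The libraries of the tissues did not overlap for 7796 genes (44.4%), of which 3767 (21.5%) were higher and 4029 (23%) lower in the hippocampus. The median log2 difference was 0.01 over all genes and its median size over the called genes was 0.80. Without frontal cortex replicate 2, 1636 genes were called higher and 1618 lower. With the animal as a block, 3516 were higher and 3296 lower, and these held 4943 of the 4944 genes, none in the other direction.

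The tissue labels were checked against marker genes. Prox1, C1ql2 and Fibcd1 of the hippocampal fields were higher in every hippocampal library than in any cortical one. Lamp5, Cux2 and Tbr1 of the neocortex were higher in every cortical library. These come from lists whose other members did not all go the same way. In the dentate list 10 of 16 genes were higher and 2 lower, and in the CA list 17 of 20 were higher. In the upper layer list 9 of 12 were lower and 2 higher, and in the deep layer list 8 of 20 were lower and 4 higher. The hippocampal libraries also held markers of adjoining structures, in unequal amounts. The 16 choroid plexus genes summed to 328, 314 and 295 CPM in the frontal cortex and to 9180.0, 3587 and 3403 CPM in the hippocampus. The 12 thalamus and habenula genes summed to 258, 268 and 281 CPM and 830.4, 389 and 857 CPM, and the 14 genes of ependyma and motile cilia to 23.7, 20.2 and 24.1 CPM and 113, 53.9 and 112 CPM. Hippocampus replicate 1 was thus highest for choroid plexus, replicates 1 and 3 were high for thalamus and ependyma, and replicate 2 was lowest for both of these. With bulk tissue, more cells of a type and more RNA per cell cannot be told apart, and the part of adjoining tissue in any other result was not tested.

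**Figure D1:**
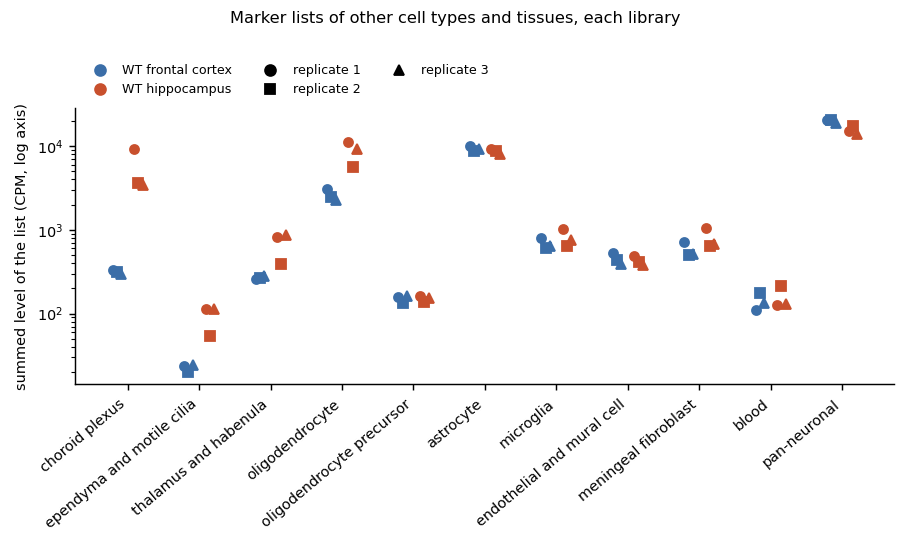
Summed level of each marker list (CPM, log axis) in the 3 WT frontal cortex libraries (blue) and the 3 WT hippocampus libraries (orange), with a symbol for each replicate. Choroid plexus, ependyma, thalamus and oligodendrocyte lists are higher in every hippocampal library, whereas the microglia, endothelial and blood lists overlap between the tissues.

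All 16 choroid plexus genes were called higher in the hippocampus, and the median of the list was 6.49 on the log2 scale. Ttr, which encodes the thyroxine carrier transthyretin, had 1.51, 6.01 and 1.55 CPM in the frontal cortex and 5837, 2163 and 1968 CPM in the hippocampus (log2 difference 10.13 ± 0.76, edgeR adjusted p = 3.8e-05). Kl (klotho) had 2.42, 3.2 and 3.35 CPM and 243, 110.4 and 96.9 CPM (log2 difference 5.67 ± 0.41, edgeR adjusted p = 3.3e-05). Among the 3 WT striatum libraries, replicate 3 alone had a sum of the list at the hippocampal level, at 8820 CPM against 405 and 418 CPM in the other two. All 16 genes stayed higher when any 1 library was left out, and also when hippocampus replicates 1 and 3 were both left out, where the median was 5.87.

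Ependyma and thalamus markers differed in the same direction. Of 14 genes of motile cilia and ependyma, 11 were higher and 0 lower (median 2.89), among them Foxj1, the transcription factor of motile ciliogenesis, with 4.34, 2.66 and 2.51 CPM in the frontal cortex and 38.2, 14.4 and 28.9 CPM in the hippocampus (log2 difference 3.11 ± 0.37, edgeR adjusted p = 0.00048). Of 12 thalamus and habenula genes, 8 were higher and 0 lower (median 2.72). Tcf7l2, a Wnt pathway transcription factor abundant in thalamic neurons, had 6.02, 5.25 and 5.01 CPM and 108, 48.3 and 106 CPM (log2 difference 4.03 ± 0.32, edgeR adjusted p = 5e-05). The glutamate transporter gene Slc17a6, which marks thalamic more than cortical excitatory neurons, had 13.9, 14.2 and 9.29 CPM and 83.8, 56.2 and 117 CPM (log2 difference 2.80 ± 0.28, edgeR adjusted p = 0.00018). With hippocampus replicate 2 as the only hippocampal library, 10 of the 14 ependymal and 6 of the 12 thalamic genes were still called higher, with medians of 2.04 and 1.19, and 1 thalamic gene, Tac2, was called lower.

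Habenular genes were high in 1 library. Gpr151, a receptor gene of habenular neurons, had 0.809, 0.749 and 25.1 CPM in the hippocampus and 0.42, 0.609 and 0.369 CPM in the frontal cortex (log2 difference 4.28 ± 1.38, edgeR adjusted p = 0.048). Tac2, the neurokinin B precursor, had 2.77, 2.62 and 24.9 CPM and 9.8, 8.18 and 9.92 CPM (log2 difference 0.15 ± 0.75, edgeR adjusted p = 0.9). Only hippocampus replicate 3 was high for these genes. Without that library the log2 difference of Gpr151 was 0.75 and was not called, and that of Tac2 became −1.77. The call of Gpr151 was also lost without any 1 of the cortical libraries.

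White matter and glia differed by cell type. Of 17 oligodendrocyte genes, 16 were higher in the hippocampus and 0 lower, with a median of 1.63, and 16 stayed higher with hippocampus replicate 2 alone. Mag, which encodes myelin-associated glycoprotein, had 78.2, 81.8 and 70.0 CPM in the frontal cortex and 261, 166 and 274 CPM in the hippocampus (log2 difference 1.63 ± 0.19, edgeR adjusted p = 0.00037). The list of oligodendrocyte precursor genes differed less, since 1 of 7 was higher, near the share of 14.4% of all genes, and the median was −0.05. The higher gene was Enpp6, a gene of newly formed oligodendrocytes (log2 difference 1.91 ± 0.22, edgeR adjusted p = 0.00042).

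Astrocyte genes moved in both directions, with 5 of 15 higher and 3 lower, against 14.4% and 13.8% of all genes. Without frontal cortex replicate 3 or hippocampus replicate 2, 3 were higher. Gfap, the intermediate filament of fibrous and reactive astrocytes, had 153, 77.4 and 85 CPM in the frontal cortex and 1113, 587 and 656 CPM in the hippocampus (log2 difference 2.92 ± 0.33, edgeR adjusted p = 0.00034). Agt, the angiotensin precursor, had 4.45, 4.95 and 5.35 CPM and 54.6, 50 and 59 CPM (log2 difference 3.49 ± 0.12, edgeR adjusted p = 1.6e-06). The phagocytic bridge gene Mfge8 was lower (log2 difference −0.91 ± 0.14, edgeR adjusted p = 0.0017), as was Aldh1l1, which encodes a folate enzyme common to astrocytes (log2 difference −0.51 ± 0.11, edgeR adjusted p = 0.0085). Among 14 microglial genes edgeR called 0 in either direction, with 2 higher at an unadjusted p under 0.05 and 2 by DESeq2. With the animal as a block 4 of them were higher, and without hippocampus replicate 2, 6 were. Among 5 blood genes edgeR called 0, with 0 at an unadjusted p under 0.05, 0 by DESeq2 and 1 higher with the block. Of 14 endothelial and mural genes 2 were higher, near the share of 14.4% of all genes. Both are genes of smooth muscle, Acta2 (log2 difference 1.26 ± 0.26, edgeR adjusted p = 0.0068) and Myh11 (log2 difference 0.64 ± 0.16, edgeR adjusted p = 0.02). The block gave 3 higher and 2 lower. Myh11 was not called without frontal cortex replicate 2 or hippocampus replicate 1. Of 10 meningeal genes 4 were higher, against 14.4% of all genes. They included Dcn, which encodes the matrix proteoglycan decorin (log2 difference 1.76 ± 0.29, edgeR adjusted p = 0.0022). For this list the block gave 4 higher and 1 lower.

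The 12 largest rises by the fitted log2 difference, taken from 1499 higher genes whose log2 CPM averaged 3 or more and whose tissues were apart, were mostly genes of these adjoining structures. Besides Ttr they were Slc4a5, Kcne2, Tmem72, Cldn2, Mfrp, Otx2, Clic6 and Sostdc1, which the choroid plexus expresses, the homeobox gene Shox2, C1ql2 and Dsp. Slc4a5, a sodium bicarbonate cotransporter gene, had 0.07, 0.0381 and 0.0369 CPM in the frontal cortex and 56.4, 17.8 and 16.6 CPM in the hippocampus. Shox2, known from thalamic neurons, had 0.035, 0.114 and 0.0737 CPM and 42.3, 15.8 and 30.6 CPM (log2 difference 8.59 ± 0.57, edgeR adjusted p = 2.2e-05). Kcne2 rests on 3 cortical counts, and its ratio was 531 with a 95% exact counting interval of 181 to 2577. Of the 12, 2 (C1ql2 and Dsp) are dentate granule cell genes.

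The 12 largest falls opened with Dkkl1, which encodes a secreted protein related to the Dickkopf Wnt inhibitors (chromosome 7, 45207519 to 45212147, minus strand, in GRCm38), with 24.7, 29 and 22.2 CPM in the frontal cortex and 0.578, 0.899 and 0.302 CPM in the hippocampus (log2 difference −5.41 ± 0.27, edgeR adjusted p = 6.7e-06). Rasgef1c, a guanine nucleotide exchange factor gene, had 34.2, 43.8 and 47.2 CPM and 1.73, 2.06 and 1.95 CPM (log2 difference −4.43 ± 0.16, edgeR adjusted p = 1.8e-06). Cckbr, the cholecystokinin B receptor, had 98.7, 86.5 and 79.5 CPM and 8.66, 7.6 and 7.19 CPM (log2 difference −3.48 ± 0.12, edgeR adjusted p = 1.6e-06). Others among them were Igfn1 (−4.34), Myl4 (−4.28), Gm11549 (−4.14), the heparan sulfate sulfotransferase gene Hs3st2 (−3.83), the ligand gene Bmp3 (−3.63), Sowahb (−3.37), the potassium channel gene Kcnh4 (−3.32) and Otof (−3.23, all log2 differences). Each of these named falls was called in each of the 6 fits that left out 1 library.

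The 3 WT striatum libraries were brought in, by a rule added after the values were seen, to name genes above both other tissues in an edgeR fit of the 9 WT libraries. By that rule, of 17545 genes tested, 515 were higher in the hippocampus than in both, and 1273 in the frontal cortex than in both. All 3 striatum libraries were run on lane 5, and striatum replicate 3 held choroid plexus RNA, as given above. The part of either in these counts was not tested. Shisa6, which encodes an auxiliary protein of AMPA receptors, had 221, 219.9 and 167 CPM in the hippocampus, 13.1, 13.2 and 14.2 CPM in the frontal cortex and 6.84, 5.26 and 8.83 CPM in the striatum. Cabp7, a calcium-binding protein gene, had 304, 321 and 287 CPM, 29.6, 30.6 and 31.3 CPM and 14.3, 12.7 and 10.8 CPM. The part of adjoining tissue in these values was not tested. The 12 with the largest margin also held Slc9a4, C1ql2, Lhx9, Lct, Dsp, Il16, Rasd1, Tspan18 and the protocadherin gene Pcdh20, and those of the frontal cortex held Dkkl1, Igfn1, Myl4, Gm11549, Bmp3, Cckbr, Hs3st2, Vip, Hkdc1, C130074G19Rik and Fhod3.

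Dentate granule cell genes included 2 with under 1 CPM in every cortical library, C1ql2 and Dsp. C1ql2, a secreted C1q-like synaptic protein of mossy fibres (chromosome 1, 120340582 to 120343174, plus strand), had 0.595, 0.837 and 0.479 CPM in the frontal cortex and 94.3, 67.4 and 61.5 CPM in the hippocampus (log2 difference 6.88 ± 0.25, edgeR adjusted p = 1.8e-06). Dsp, which encodes the desmosomal protein desmoplakin, had 0.385, 0.457 and 0.553 CPM and 60.7, 45.3 and 44.8 CPM (log2 difference 6.76 ± 0.21, edgeR adjusted p = 1.6e-06). Prox1, the homeobox gene that specifies granule cells (chromosome 1, 190118035 to 190170714, minus strand), had 15.5, 16.1 and 15.7 CPM and 200.2, 137 and 149 CPM (log2 difference 3.38 ± 0.15, edgeR adjusted p = 3.8e-06). Every hippocampal library exceeded every cortical library for these genes, and replicate 1 was the highest for all of them.

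Of the 16 dentate genes, 10 were higher, 2 lower and 4 not called, with a median log2 difference of 0.69, and with hippocampus replicate 2 alone 9 were higher and 0 lower. Lct, the lactase gene, had 2.38, 2.59 and 3.13 CPM in the frontal cortex and 89.9, 63.2 and 62.3 CPM in the hippocampus (log2 difference 4.75 ± 0.19, edgeR adjusted p = 2.5e-06). Dock10, a guanine nucleotide exchange factor gene, rose from 27.9, 25.3 and 24.8 CPM to 142, 103 and 128 CPM (log2 difference 2.28 ± 0.13, edgeR adjusted p = 1.1e-05), and the neurotrophin gene Bdnf from 32.4, 29.9 and 36 CPM to 56.8, 53.3 and 61.4 CPM (log2 difference 0.82 ± 0.10, edgeR adjusted p = 0.00051). Tdo2 (3.06), Rfx3 (1.02), Fam163b (0.56) and Sipa1l2 (0.52) were also higher. The 2 lower genes were C1ql3, with 179, 176 and 272 CPM and 104, 123 and 125 CPM (log2 difference −0.82 ± 0.17, edgeR adjusted p = 0.0078), and Trpc6 (log2 difference −0.39 ± 0.09, edgeR adjusted p = 0.015). Without frontal cortex replicate 3 Trpc6 was not called, and without replicate 2 Fam163b was not. Plk5 and Stxbp6 were not called in the fit without the block (edgeR adjusted p = 0.072 and 0.052) and were higher with it (0.026 and 0.023), and Npnt and Pdzd2 had log2 differences of −0.03 ± 0.10 and −0.12 ± 0.16. Of 6 mossy cell genes 4 were higher, namely Calb2, Drd2, Csf2rb2 and Nmb (2 of them with hippocampus replicate 2 alone), the last not without frontal cortex replicate 1 or 2. Drd2, the dopamine receptor that mossy cells carry, had 1.44, 1.22 and 1.07 CPM and 5.12, 4.01 and 4.43 CPM (log2 difference 1.88 ± 0.20, edgeR adjusted p = 0.00029).

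CA pyramidal cell genes were higher as a group, with 17 of 20 called higher and 0 lower (median 1.43), and 17 were also called with hippocampus replicate 2 as the only hippocampal library. Fibcd1, a CA1 gene for a chitin-binding membrane protein, had 9.7, 8.37 and 12 CPM in the frontal cortex and 91.2, 148 and 139 CPM in the hippocampus (log2 difference 3.67 ± 0.21, edgeR adjusted p = 1e-05). Spink8, a protease inhibitor gene of CA1, had 0.56, 0.761 and 0.516 CPM and 8.16, 12 and 13.5 CPM (log2 difference 4.2 ± 0.26, edgeR adjusted p = 1.5e-05). Hippocampus replicate 1 was the lowest of the 3 for both, whereas it was the highest for C1ql2, Dsp and Prox1.

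Homer3, a postsynaptic scaffold gene, had 5.22, 4.87 and 3.8 CPM and 44.7, 52.5 and 43 CPM (log2 difference 3.35 ± 0.14, edgeR adjusted p = 2.9e-06). Ntf3, which encodes neurotrophin 3, had 0.805, 0.571 and 1.03 CPM and 6.97, 7.12 and 6.72 CPM (log2 difference 3.12 ± 0.22, edgeR adjusted p = 3.3e-05). Iyd (5.87), the secreted signal gene Lefty1 (4.18), Map3k15 (1.84), Cacng5 (1.75), the adhesion gene Amigo2 (1.72), Cdh24 (1.14), the CA2 gene Rgs14 (1.09) and Cpne4 (1.01) rose by more than 2-fold. Grik4, Man1a, Pou3f1 and Nectin3 rose by less, and Nectin3 was not called without frontal cortex replicate 1 or 2. Avpr1b, the vasopressin receptor of CA2, had 1 count in the cortical libraries and 51 in the hippocampal ones, a ratio of 50.7 with a 95% exact counting interval of 8.70 to 2042. The 3 genes not called were Wfs1, Pcp4 and Bok, whose log2 differences were −0.02 ± 0.18, −0.06 ± 0.23 and 0.33 ± 0.16, and of these Bok was higher with the block (edgeR adjusted p = 0.035). Wfs1, which marks CA1 within the hippocampus, overlapped between the frontal cortex (157, 131 and 215 CPM) and the hippocampus (174, 141 and 174 CPM).

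**Figure D2:**
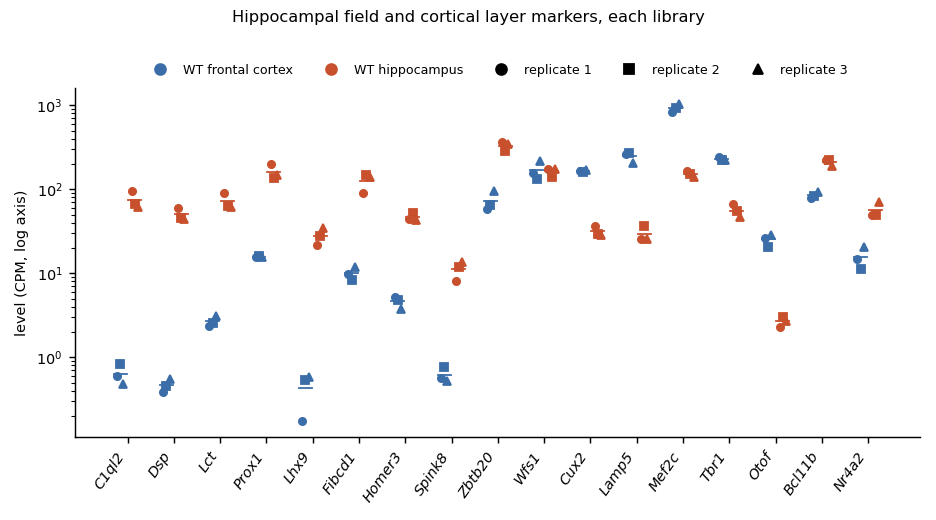
Level (CPM, log axis) of hippocampal field and cortical layer markers in the 3 WT frontal cortex libraries (blue) and the 3 WT hippocampus libraries (orange), with a symbol per replicate and a line at the mean of each tissue. C1ql2, Dsp, Lct, Prox1, Lhx9, Fibcd1, Homer3, Spink8 and Zbtb20 are higher in every hippocampal library, Wfs1 overlaps, Cux2 to Otof are higher in every cortical library, and Bcl11b and Nr4a2 are higher in every hippocampal library.

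Neocortical genes of the upper layers were mostly lower in the hippocampus. Of 12 upper layer genes 9 were lower and 2 higher (median −1.85). Lamp5, a membrane protein gene of superficial neurons, had 266, 272 and 209 CPM in the frontal cortex and 25.8, 36.4 and 25.5 CPM in the hippocampus (log2 difference −3.08 ± 0.16, edgeR adjusted p = 8.1e-06). Mef2c, an activity-regulated transcription factor, had 839.8, 923 and 1043 CPM and 166, 154 and 142 CPM (log2 difference −2.59 ± 0.11, edgeR adjusted p = 3.3e-06). For these genes every cortical library was far above every hippocampal one.

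The homeobox gene Cux2 fell from 166, 161 and 171 CPM to 36.4, 29.6 and 28.9 CPM (log2 difference −2.38 ± 0.11, edgeR adjusted p = 3.8e-06), and its relative Cux1 by less (log2 difference −0.66 ± 0.11, edgeR adjusted p = 0.002). Otof (−3.23), Rspo1 (−2.80), Rasgrf2 (−1.32) and the granular layer nuclear receptor gene Rorb (−1.14) were lower too. Scnn1a, a sodium channel subunit gene used as a granular layer driver, was higher in the hippocampus (log2 difference 1.46 ± 0.28, edgeR adjusted p = 0.0055), Nectin3, which the CA list also holds, was higher (log2 difference 0.37 ± 0.09, edgeR adjusted p = 0.018), and Whrn had a log2 difference of −0.03 ± 0.18.

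Of 20 deep layer genes 8 were lower, 4 higher and 8 not called (median −0.45). Without frontal cortex replicate 3, 4 were lower, and without replicate 2, 5 were. Tbr1, a transcription factor of corticothalamic neurons, had 240.1, 223 and 226 CPM in the frontal cortex and 66.4, 54.7 and 46.8 CPM in the hippocampus (log2 difference −2.02 ± 0.13, edgeR adjusted p = 1.7e-05). Cplx3, a complexin gene of subplate neurons, had 13, 12.9 and 12.1 CPM and 3.58, 4.94 and 3.06 CPM (log2 difference −1.70 ± 0.18, edgeR adjusted p = 0.00022). Fezf2 (−0.61), Rprm (−1.0), Ntsr1 (−1.18), Ccn2 (−0.89), Oprk1 (−1.09) and Qrfpr (−0.93) were the other lower genes, as log2 differences. Of these, only Rprm kept its call in all 6 fits with 1 library left out. Qrfpr lost it without frontal cortex replicate 2, Oprk1 without replicate 3, Ccn2 without cortical replicate 1 or 3 or hippocampus replicate 2, Fezf2 without any 1 library but hippocampus replicate 2, and Ntsr1 without any 1 but frontal cortex replicate 1.

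The other 4 called deep layer genes were higher. Bcl11b, the zinc finger gene of corticospinal neurons that granule cells and CA1 also express, had 79.1, 83.1 and 92.1 CPM in the frontal cortex and 226, 223 and 187 CPM in the hippocampus (log2 difference 1.34 ± 0.10, edgeR adjusted p = 3.9e-05). Nr4a2, an orphan nuclear receptor of the subplate, had 14.7, 11.4 and 20.6 CPM and 49, 49.2 and 71.3 CPM (log2 difference 1.88 ± 0.23, edgeR adjusted p = 0.00054). The repressor gene Bcl6 (log2 difference 0.95 ± 0.09, edgeR adjusted p = 0.00015) and the corepressor Tle4 (log2 difference 0.22 ± 0.07, edgeR adjusted p = 0.044) were higher by less, and Tle4 was not called with any 1 library left out. Etv1, Parm1, Sulf2, Tcerg1l, Foxp2, Syt6, Nxph4 and Crym were not called, and their log2 differences ran from −0.92 (Nxph4) to 0.93 (Crym). With the block Crym was higher, and Tcerg1l, Nxph4 and Parm1 were lower (edgeR adjusted p = 0.008, 0.024, 0.049 and 0.048).

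Transcription factors that pattern the telencephalon were split, with 8 of 22 higher, 8 lower and a median of −0.02. Lhx9, a LIM homeobox gene (chromosome 1, 138825186 to 138848577, minus strand), had 0.175, 0.533 and 0.59 CPM in the frontal cortex and 21.8, 27.9 and 34.6 CPM in the hippocampus (log2 difference 6.04 ± 0.32, edgeR adjusted p = 8.4e-06). Zbtb20, which is required for CA1 identity, had 57.6, 64.5 and 95.6 CPM and 361, 289 and 345 CPM (log2 difference 2.21 ± 0.19, edgeR adjusted p = 8.7e-05). The tissues did not overlap for either. The neuronal bHLH genes Neurod1, Neurod2 and Neurod6 were each higher, with log2 differences of 1.04, 0.83 and 1.40. Prox1 among the higher genes and Tbr1 and Fezf2 among the lower are given above.

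The COUP-TF pair diverged, since Nr2f2 was higher (log2 difference 1.39 ± 0.13, edgeR adjusted p = 0.00011) and Nr2f1 lower (log2 difference −0.58 ± 0.09, edgeR adjusted p = 0.0017). Meis2, a TALE homeobox gene, fell from 198, 186 and 199 CPM to 39.6, 64.1 and 34.7 CPM (log2 difference −2.06 ± 0.20, edgeR adjusted p = 0.00014), and Emx1, the pallial homeobox gene, from 17.5, 20.6 and 20.2 CPM to 7.09, 10.2 and 9.44 CPM (log2 difference −1.11 ± 0.15, edgeR adjusted p = 0.00075). Id2 (−0.80) and Sp8 (−0.76) were lower as well, Sp8 not without frontal cortex replicate 2 or 3 or hippocampus replicate 2. Lef1, which the thalamus list also holds, was higher (log2 difference 1.10 ± 0.25, edgeR adjusted p = 0.012), though not without frontal cortex replicate 2. Pax6, Dmrta2 and Otx1 had log2 differences of 0.22 ± 0.17, −0.18 ± 0.20 and −0.53 ± 0.18. Emx2 and Lhx2 were not called (edgeR adjusted p = 0.09 and 0.12) but were with the block, Emx2 as higher and Lhx2 as lower (0.0048 and 0.011), and Otx1 was lower there (0.018).

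Interneuron genes differed in both directions. Of 24 genes 9 were lower and 7 higher, and without frontal cortex replicate 1 the lower genes were 5, as they were with hippocampus replicate 2 alone. Vip, the peptide of disinhibitory interneurons, had 47.6, 42.7 and 48.6 CPM in the frontal cortex and 3.89, 7.83 and 6.25 CPM in the hippocampus (log2 difference −2.93 ± 0.21, edgeR adjusted p = 3.3e-05). Crh had 6.34, 4.3 and 4.65 CPM and 0.655, 1.09 and 0.739 CPM (log2 difference −2.61 ± 0.26, edgeR adjusted p = 0.00018). The neuropeptide genes Npy (log2 difference −0.81 ± 0.15, edgeR adjusted p = 0.0049) and Cck (log2 difference −0.65 ± 0.08, edgeR adjusted p = 0.00043) and Lhx6, the transcription factor of interneurons from the medial ganglionic eminence (log2 difference −0.98 ± 0.16, edgeR adjusted p = 0.0026), were lower.

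Among the higher interneuron genes, Adarb2, a marker of interneurons from the caudal ganglionic eminence, had 34.1, 37.1 and 30.7 CPM in the frontal cortex and 81.8, 63.9 and 56.2 CPM in the hippocampus (log2 difference 1.00 ± 0.14, edgeR adjusted p = 0.0011), and the neurogliaform gene Ndnf had 7.63, 7.84 and 7.96 CPM and 11, 15.6 and 12.8 CPM (log2 difference 0.76 ± 0.14, edgeR adjusted p = 0.0041). Calb2 (calretinin) rose to 28, 38.4 and 64.6 CPM from 10.6, 8.79 and 12.9 CPM (log2 difference 2.04 ± 0.29, edgeR adjusted p = 0.0012), and it is carried by mossy cells as well as interneurons. Sncg, Nos1 and Nkx2-1 were also higher, and Nkx2-1 had 2 cortical and 47 hippocampal counts. Genes of striatal projection neurons differed in both directions, with 4 of 16 higher and 5 lower, against 14.4% and 13.8% of all genes.

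Neuropeptide genes divided with 9 of 22 lower and 5 higher, or 3 higher with hippocampus replicate 2 alone. Beside Vip, Crh, Npy and Cck, the dynorphin precursor Pdyn had 39.2, 35.5 and 34.7 CPM in the frontal cortex and 18.6, 13.4 and 14.5 CPM in the hippocampus (log2 difference −1.22 ± 0.14, edgeR adjusted p = 0.00033), and Vgf, an activity-regulated neurosecretory protein gene, had 271, 241 and 246 CPM and 160.2, 157 and 161 CPM (log2 difference −0.65 ± 0.08, edgeR adjusted p = 0.00054). Nts, the neurotensin gene, was higher at 1.89, 2.7 and 1.91 CPM against 0.07, 0.114 and 0.0737 CPM (log2 difference 4.6 ± 0.35, edgeR adjusted p = 4.3e-05). The nociceptin precursor Pnoc (log2 difference 0.78 ± 0.15, edgeR adjusted p = 0.0061), Scg2 (log2 difference 0.44 ± 0.07, edgeR adjusted p = 0.0023) and Gal (log2 difference 2.71 ± 0.53, edgeR adjusted p = 0.0056) were higher too.

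**Figure D3:**
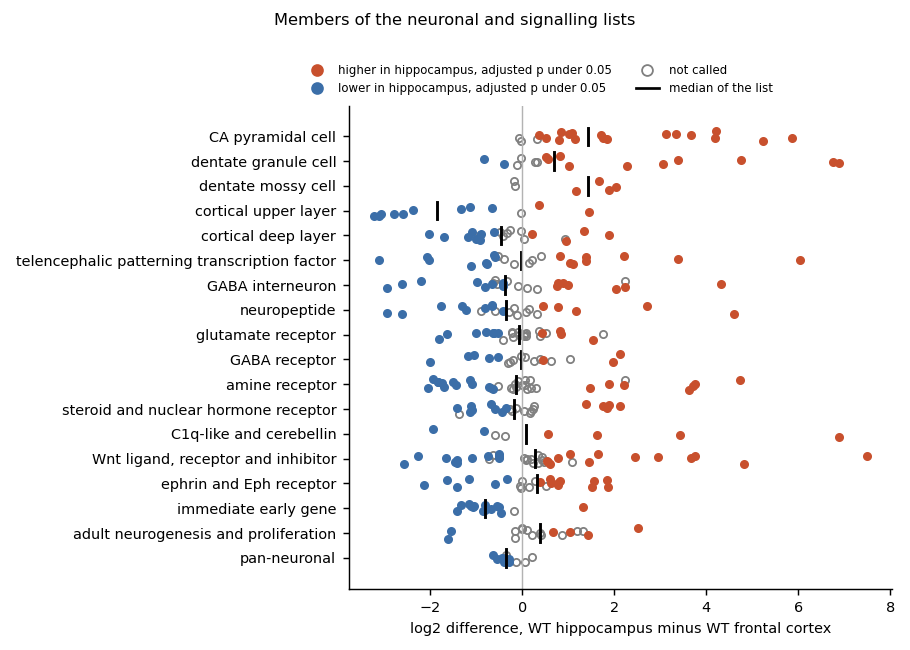
Log2 difference (WT hippocampus minus WT frontal cortex) of every tested member of the neuronal and signalling lists, with filled points for genes called at an edgeR adjusted p under 0.05, open points for the rest and a black bar at the median of each list. CA genes lie to the right (median 1.43), upper layer genes to the left (median −1.85), and receptor lists spread to both sides of 0.

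Ionotropic glutamate receptors differed by subunit. AMPA receptors are tetramers of the Gria subunits, and Gria1 was the only one of the 4 genes that was higher, at 1059, 1312 and 1144 CPM in the hippocampus against 373, 392 and 449 CPM in the frontal cortex (log2 difference 1.55 ± 0.11, edgeR adjusted p = 3.3e-05). Gria3 (log2 difference −0.78 ± 0.10, edgeR adjusted p = 0.00058) and Gria4 (log2 difference −0.64 ± 0.10, edgeR adjusted p = 0.0015) were lower, and Gria2, which completes the family and was named after its values were seen, had a log2 difference of 0.07 ± 0.10. Per kilobase of exon, the mean level of Gria1 was 194 CPM in the hippocampus, above 44 for Gria2, and 66.9 against 42.2 CPM in the frontal cortex. This length joins all annotated exons of a gene, and the order of genes can depend on it. By CPM alone, Gria2 was above Gria1 in the Pcm1-/- frontal cortex, with 753.1, 755.3 and 781.9 against 442.6, 450.5 and 459.8 CPM. In the Pcm1-/- hippocampus Gria1 was above Gria2 by CPM too. Of 25 glutamate receptor genes tested 4 were higher and 7 lower, against 14.4% and 13.8% of all genes, so the higher count was near that share. With the block 7 were higher and 8 lower.

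Kainate receptor genes moved both ways. The kainate subunit gene Grik3 had 152, 142 and 169 CPM in the frontal cortex and 49.7, 49.5 and 47.7 CPM in the hippocampus (log2 difference −1.64 ± 0.09, edgeR adjusted p = 8e-06), whereas Grik4, the subunit of mossy fibre synapses, had 33.4, 36.1 and 37.1 CPM and 59.3, 74 and 55.3 CPM (log2 difference 0.84 ± 0.11, edgeR adjusted p = 0.00076). Grm8, a presynaptic metabotropic receptor gene, had 25.3, 24.8 and 30.4 CPM and 6.43, 8.8 and 7.59 CPM (log2 difference −1.80 ± 0.14, edgeR adjusted p = 4.6e-05). Grm3 (log2 difference −1.01 ± 0.13, edgeR adjusted p = 0.00081) and Grm2 (log2 difference −0.62 ± 0.12, edgeR adjusted p = 0.0046) were lower.

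The GABA-A receptor is a pentamer whose alpha subunit sets its kinetics and place, and the alpha genes parted. Gabra5, the extrasynaptic alpha subunit gene known for the hippocampus, had 52.2, 69.7 and 64.9 CPM in the frontal cortex and 209.7, 300.4 and 215 CPM in the hippocampus (log2 difference 1.97 ± 0.16, edgeR adjusted p = 5.7e-05). Gabra3 had 234, 243 and 251 CPM and 48.5, 78 and 53.7 CPM (log2 difference −2.0 ± 0.16, edgeR adjusted p = 5.3e-05). Also lower were Gabrd, which codes for the delta subunit of tonic inhibition (log2 difference −1.18 ± 0.14, edgeR adjusted p = 0.00038), Gabrg3 (log2 difference −1.04 ± 0.14, edgeR adjusted p = 0.00097) and Gabrb2 (log2 difference −0.53 ± 0.13, edgeR adjusted p = 0.018), the last not without frontal cortex replicate 2 or 3. In all, 3 of 17 GABA receptor genes were higher and 5 lower, against 14.4% and 13.8% of all genes. The higher count was near that share.

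Amine receptor genes held both large rises and large falls, with 7 of 34 higher and 12 lower, against 14.4% and 13.8% of all genes. Htr4, a Gs-coupled serotonin receptor gene, had 0.245, 0.609 and 0.774 CPM in the frontal cortex and 11.9, 15.3 and 16 CPM in the hippocampus (log2 difference 4.74 ± 0.31, edgeR adjusted p = 1.9e-05). Htr2c had 27.3, 26.9 and 40.6 CPM and 91.7, 85.3 and 82.3 CPM (log2 difference 1.47 ± 0.16, edgeR adjusted p = 0.00026), and it is abundant in choroid plexus as well as neurons. Drd5, a D1-class dopamine receptor gene, had 1.89, 2.44 and 2.14 CPM and 8.74, 10.7 and 10.1 CPM (log2 difference 2.21 ± 0.16, edgeR adjusted p = 3.5e-05). For these genes the groups did not overlap.

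The 12 receptor genes lower in the hippocampus were of the serotonin, dopamine, adrenergic, muscarinic and histamine families. The presynaptic histamine receptor gene Hrh3 had 143, 115 and 154 CPM in the frontal cortex and 34.2, 35.4 and 36.2 CPM in the hippocampus (log2 difference −1.94 ± 0.12, edgeR adjusted p = 1.3e-05), and Hrh1 had 20.9, 17.4 and 19.5 CPM and 4.74, 6.26 and 5.21 CPM (log2 difference −1.82 ± 0.14, edgeR adjusted p = 3.7e-05). The beta-1 adrenergic receptor gene Adrb1 had 50.6, 46 and 48.7 CPM and 15.1, 18.6 and 17.3 CPM (log2 difference −1.50 ± 0.10, edgeR adjusted p = 2.1e-05). Adra1a (log2 difference −1.44 ± 0.14, edgeR adjusted p = 0.00017), Chrm4 (log2 difference −1.70 ± 0.16, edgeR adjusted p = 0.00011) and Adra1b (log2 difference −1.83 ± 0.21, edgeR adjusted p = 0.00036) were lower as well. Chrm5, at the low level of 1, 2.73 and 1.68 CPM against 0.105, 0.0761 and 0.221 CPM, was higher (log2 difference 3.72 ± 0.52, edgeR adjusted p = 0.001).

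The corticosteroid receptors went apart. Nr3c2, the high-affinity mineralocorticoid receptor gene (chromosome 8, 76899442 to 77245012, plus strand), had 52.2, 59.6 and 55.6 CPM in the frontal cortex and 203, 291 and 233 CPM in the hippocampus (log2 difference 2.13 ± 0.13, edgeR adjusted p = 1.4e-05). Nr3c1, the glucocorticoid receptor gene, named after its values were seen, had 173, 170.3 and 171 CPM and 127, 129.6 and 139 CPM (log2 difference −0.36 ± 0.08, edgeR adjusted p = 0.0075). Per kilobase of exon, mean levels in the frontal cortex were 22.3 CPM for Nr3c1 and 8.62 CPM for Nr3c2, and in the hippocampus 17.1 and 37.4 CPM, so the order of the genes differed between the tissues. Of 22 steroid and nuclear receptor genes 5 were higher and 8 lower, against 14.4% and 13.8% of all genes. The lower genes included the thyroid hormone receptor gene Thrb (log2 difference −1.09 ± 0.10, edgeR adjusted p = 0.00013) and the progesterone receptor gene Pgr (log2 difference −1.12 ± 0.17, edgeR adjusted p = 0.0016).

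In the C1q-like and cerebellin family of secreted synapse organizers, 4 of 8 genes were higher and 2 lower. C1ql2 was higher and C1ql3, which mossy fibres also carry, was lower, with the values given above. Cbln2 had 69.9, 57 and 58.7 CPM in the frontal cortex and 8.66, 10.8 and 28.2 CPM in the hippocampus (log2 difference −1.93 ± 0.38, edgeR adjusted p = 0.0061), with the highest hippocampal value in replicate 3. Cbln1 had 3.64, 2.7 and 4.5 CPM and 11, 5.92 and 16.3 CPM (log2 difference 1.64 ± 0.36, edgeR adjusted p = 0.0096). Its lowest hippocampal value was in replicate 2, as was that of the thalamus sums, and a link was not tested. C1ql4 (log2 difference 3.43 ± 0.61, edgeR adjusted p = 0.0036) was higher at under 2 CPM, C1ql1 (log2 difference 0.56 ± 0.17, edgeR adjusted p = 0.044) was higher with overlapping groups and kept its call without frontal cortex replicate 1 or hippocampus replicate 3 but not without any other library, and Cbln3 and Cbln4 had log2 differences of −0.58 ± 0.31 and −0.38 ± 0.27. With hippocampus replicate 2 alone, 1 of the 8 was called higher and 1 lower.

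Wnt signalling runs from secreted ligands through Frizzled and Lrp receptors, with secreted inhibitors. Of 38 genes tested 13 were higher and 12 lower, against 14.4% and 13.8% of all genes. The median of 0.28 was the same with Wnt8b at its bound. Among ligands, Wnt10a had 15.8, 16.5 and 12.9 CPM in the frontal cortex and 3.43, 2.85 and 2.99 CPM in the hippocampus (log2 difference −2.27 ± 0.15, edgeR adjusted p = 2.3e-05), and Wnt4 had 33.1, 29.1 and 32.2 CPM and 14.9, 14.6 and 14.4 CPM (log2 difference −1.09 ± 0.09, edgeR adjusted p = 8.1e-05). Wnt9a was lower (log2 difference −1.41 ± 0.19, edgeR adjusted p = 0.00075), and Wnt3 (log2 difference 2.46 ± 0.29, edgeR adjusted p = 0.0004), Wnt9b (log2 difference 4.83 ± 0.56, edgeR adjusted p = 0.0004) and Wnt11 (log2 difference 2.95 ± 0.35, edgeR adjusted p = 0.00046) were higher. Wnt8b, named after its values were seen because no cortical library held a count, had 67 counts in the hippocampus and was at least 22.2-fold higher against a floor of 3 counts over the group. The receptor gene Fzd7 (log2 difference 1.46 ± 0.21, edgeR adjusted p = 0.0012) and the inhibitor gene Sfrp5 (log2 difference 3.77 ± 0.31, edgeR adjusted p = 6.4e-05) were higher. Among the hippocampal libraries, Wnt3, Wnt9b and Fzd7 were lowest in replicate 2, as the thalamus and ependyma sums were, and a link was not tested. With that library alone the median of the list was 0.13.

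Ephrins and their Eph receptors, which guide axons by contact, differed on both sides of the pair. Of 22 genes 10 were higher and 6 lower, against 14.4% and 13.8% of all genes. The median log2 difference was 0.33, and 0.16 with hippocampus replicate 2 alone. Epha7 had 82.4, 84.6 and 102 CPM in the frontal cortex and 265, 242 and 253 CPM in the hippocampus (log2 difference 1.51 ± 0.11, edgeR adjusted p = 2.9e-05), and Epha4 had 280.4, 258 and 311 CPM and 485, 484 and 483 CPM (log2 difference 0.79 ± 0.09, edgeR adjusted p = 0.00038). The ligand gene Efna5 had 15.3, 15 and 13.4 CPM and 3.66, 2.62 and 3.46 CPM (log2 difference −2.14 ± 0.16, edgeR adjusted p = 3.7e-05), and Efnb3 had 51.1, 58 and 60.8 CPM and 165, 161 and 173 CPM (log2 difference 1.57 ± 0.09, edgeR adjusted p = 1e-05). Among the B class receptors Ephb6 (log2 difference −1.64 ± 0.17, edgeR adjusted p = 0.00021) and Ephb3 (log2 difference −1.16 ± 0.14, edgeR adjusted p = 0.00044) were lower and Ephb2 was higher (log2 difference 0.62 ± 0.11, edgeR adjusted p = 0.0032). Epha6 was higher as well (log2 difference 1.86 ± 0.23, edgeR adjusted p = 0.00055).

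Immediate early genes, which neurons transcribe within minutes of activity, were lower in the hippocampus. Of 15 genes 13 were lower, 1 (Jun) higher and 1 (Fosl2, named after its values were seen) not called, with a median of −0.82. Leaving out any 1 library gave 10 to 13 lower genes. Pan-neuronal genes were lower too, though by less, with 7 of 13 lower and a median of −0.35, and the count was 2 to 4 without frontal cortex replicate 1, 2 or 3 or hippocampus replicate 1 or 3 and 1 with hippocampus replicate 2 alone. Activity-dependent promoters often carry the cyclic AMP response element (CRE), bound by CREB. The 250 bases upstream of the start site of 5 lower genes are shown for this reason, chosen among those whose window holds a match, read 5′ to 3′ on the strand of the gene from RefSeq GRCm38.p6, with the CRE half-site TGACG or its reverse complement in capitals.
Fos: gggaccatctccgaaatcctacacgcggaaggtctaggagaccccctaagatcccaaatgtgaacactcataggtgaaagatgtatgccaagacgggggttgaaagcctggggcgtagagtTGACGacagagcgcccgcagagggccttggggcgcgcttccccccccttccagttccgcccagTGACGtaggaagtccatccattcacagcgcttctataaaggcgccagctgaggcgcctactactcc
Fosb: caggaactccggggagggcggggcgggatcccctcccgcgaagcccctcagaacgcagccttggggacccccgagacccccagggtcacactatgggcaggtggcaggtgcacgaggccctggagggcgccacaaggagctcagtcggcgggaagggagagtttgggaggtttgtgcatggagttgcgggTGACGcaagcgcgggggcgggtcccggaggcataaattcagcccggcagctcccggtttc
Junb: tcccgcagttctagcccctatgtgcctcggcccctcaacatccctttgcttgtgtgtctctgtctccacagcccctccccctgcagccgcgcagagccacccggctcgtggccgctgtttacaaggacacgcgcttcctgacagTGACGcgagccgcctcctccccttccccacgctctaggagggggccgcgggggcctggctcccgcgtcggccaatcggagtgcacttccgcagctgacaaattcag
Nr4a1: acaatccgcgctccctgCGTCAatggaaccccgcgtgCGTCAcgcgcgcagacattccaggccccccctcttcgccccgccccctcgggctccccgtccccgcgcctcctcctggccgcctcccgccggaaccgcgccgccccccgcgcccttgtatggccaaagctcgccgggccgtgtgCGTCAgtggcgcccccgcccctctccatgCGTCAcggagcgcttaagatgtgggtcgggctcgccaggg
Dusp1: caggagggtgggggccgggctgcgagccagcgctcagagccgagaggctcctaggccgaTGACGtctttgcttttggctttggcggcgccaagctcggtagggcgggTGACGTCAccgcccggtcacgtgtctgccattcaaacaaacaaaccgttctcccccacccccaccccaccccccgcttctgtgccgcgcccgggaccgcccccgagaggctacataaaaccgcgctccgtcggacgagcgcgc

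The windows were chr12:85473640-85473889 (plus strand) for Fos, chr7:19310046-19310295 (minus strand) for Fosb, chr8:84978749-84978998 (minus strand) for Junb, chr15:101266596-101266845 (plus strand) for Nr4a1 and chr17:26508473-26508722 (minus strand) for Dusp1. Of the 15 genes, 11 had a window in the table, and 8 of these (72.7%) held the half-site on either strand, against 4827 of 27025 genes (17.9%). The full palindrome TGACGTCA, which contains the half-site on both strands, was in 2 of the 11 windows (18.2%) and in 439 of all 27025 (1.62%). In Fos the half-sites began 129 and 66 bases before the start site, in Fosb 60 and in Junb 106. Nr4a1 had 4, all in reverse orientation, and Dusp1 had 3, of which 2 make up the full palindrome that begins 143 bases before the start. The windows of Jun, Fosl2 and Egr2 held no match, which says only that these letters are absent there. A match is a description of the letters and was not tested for binding.

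Fos, a subunit of the AP-1 factor, had 41.3, 43.5 and 41.9 CPM in the frontal cortex and 23.3, 15 and 22.5 CPM in the hippocampus (log2 difference −1.04 ± 0.16, edgeR adjusted p = 0.0017). Fosb had 28.6, 22 and 29.3 CPM and 13.7, 10.9 and 12 CPM (log2 difference −1.11 ± 0.15, edgeR adjusted p = 0.00073), and Dusp1, a phosphatase gene of MAP kinases, had 47.3, 61.4 and 49.8 CPM and 27.5, 21 and 26 CPM (log2 difference −1.07 ± 0.14, edgeR adjusted p = 0.00068). No hippocampal library reached the lowest cortical library for any of them. Junb (log2 difference −0.55 ± 0.10, edgeR adjusted p = 0.0039) and the orphan receptor gene Nr4a1 (log2 difference −0.68 ± 0.13, edgeR adjusted p = 0.0048) fell by less.

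Egr1, a zinc finger activator, had the highest CPM of the list, with 519, 387 and 406 CPM in the frontal cortex and 214, 157 and 206 CPM in the hippocampus (log2 difference −1.17 ± 0.16, edgeR adjusted p = 0.00082). Arc, a synaptic capsid-like protein gene, had 368, 336 and 295 CPM and 225, 155 and 185 CPM (log2 difference −0.81 ± 0.15, edgeR adjusted p = 0.004). Jun rose to 121, 112 and 88.6 CPM from 44.4, 40.9 and 45.3 CPM (log2 difference 1.32 ± 0.12, edgeR adjusted p = 0.0001). Activity-regulated genes of other lists went both ways. Bdnf and Nr4a2 were higher and Mef2c and Vgf lower, as given above. Nr4a3, an orphan receptor gene, rose from 36.3, 28.2 and 52.5 CPM to 131, 129 and 131 CPM (log2 difference 1.76 ± 0.19, edgeR adjusted p = 0.00032). In the Pcm1-/- libraries 8 of the 13 genes lower in WT were called lower, and Junb, Arc, Nr4a1, Egr3 and Btg2 (the last 2 named after their values were seen) were not. The log2 differences of Fos, Egr1 and Arc were −0.91 ± 0.11, −0.66 ± 0.10 and −0.49 ± 0.17 there (edgeR adjusted p = 0.00032, 0.0011 and 0.051), and for Arc the tissues overlapped.

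**Figure D4:**
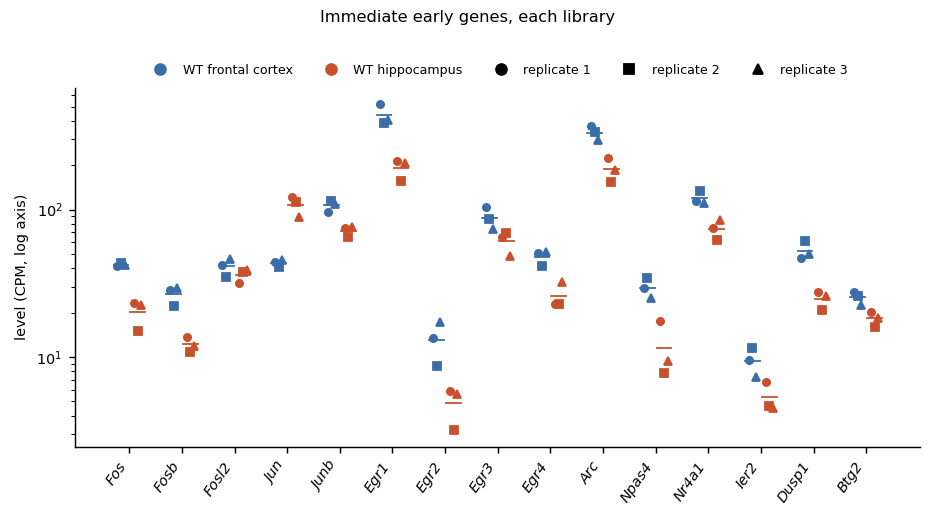
Level (CPM, log axis) of the 15 immediate early genes in the 3 WT frontal cortex libraries (blue) and the 3 WT hippocampus libraries (orange), with a symbol per replicate and a line at the mean of each tissue. The hippocampal libraries are lower for 13 genes, higher for Jun and overlap for Fosl2.

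Genes of adult neurogenesis and proliferation, a process of the dentate gyrus and the ventricle wall, differed in both directions. Of 17 genes tested 4 were higher and 2 lower, against 14.4% and 13.8% of all genes, with 7 higher under the block and 1 higher when any cortical library or hippocampus replicate 1 was left out. Dcx, a microtubule protein gene of immature neurons, was lower in the hippocampus, with 21.1, 25.4 and 33.7 CPM in the frontal cortex and 6.89, 10.3 and 10.1 CPM in the hippocampus (log2 difference −1.54 ± 0.21, edgeR adjusted p = 0.00082). Hes5, a Notch target gene, was lower too (log2 difference −1.61 ± 0.25, edgeR adjusted p = 0.0018). Neurod1, which granule cells keep in the adult, was higher, as were Igfbpl1 and Cdk1, with log2 differences of 2.51 ± 0.73 and 1.43 ± 0.45. Both of these calls were lost without any 1 of the cortical libraries or without hippocampus replicate 1, that of Cdk1 also without hippocampus replicate 2 and that of Igfbpl1 without hippocampus replicate 3.

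The same tissue difference was measured in the Pcm1-/- mice of the study, in 3 hippocampus and 3 frontal cortex libraries from other animals. Their lanes were 3, 3 and 5 for the hippocampus and 4, 5 and 5 for the frontal cortex. Tissue and lane were thus partly confounded there, and in the interaction of tissue and genotype. Of the 242 called genes among the 294 named by rule, 239 had the same direction there. For 222 the mutant tissues also did not overlap in that direction. These genes were chosen in part by the size and p of their WT difference. The same counts over all genes tested were not taken, so these shares cannot be set against them. Prox1 had a log2 difference of 3.49 ± 0.09 in mutants and 3.38 ± 0.15 in WT, and Nr3c2 2.33 ± 0.07 and 2.13 ± 0.13. Slc17a6 had 0.80 ± 0.39 in mutants against 2.80 ± 0.28 in WT, and the thalamus and habenula sums of the mutant hippocampal libraries were 238, 216 and 441 CPM, against 389 to 857 CPM in WT. The choroid plexus sums there were 3661, 496 and 6337 CPM, so that mutant replicate 2 held little of it.

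Of 17545 genes, edgeR found 0 (0%) with an interaction of tissue and genotype at an adjusted p under 0.05, and 914 at an unadjusted p under 0.05. DESeq2 found 41 and the fit of all 18 libraries 1. Without the Pcm1-/- hippocampus replicate 3, edgeR found 16, and without WT frontal cortex replicate 2 it found 1. Among the 242 named genes called in WT, the 3 with opposite signs in the genotypes were Lef1 (log2 difference 1.10 ± 0.25 in WT and −0.23 ± 0.22 in Pcm1-/-), Itih3 (0.44 ± 0.14 and −0.18 ± 0.13) and Scg2 (0.44 ± 0.07 and −0.04 ± 0.11), and edgeR called none of their interactions. Leaving out 1 WT library ended the WT call of Lef1 (frontal cortex replicate 2) and of Itih3 (frontal cortex replicate 1 or 3, hippocampus replicate 2 or 3).

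**Figure D5:**
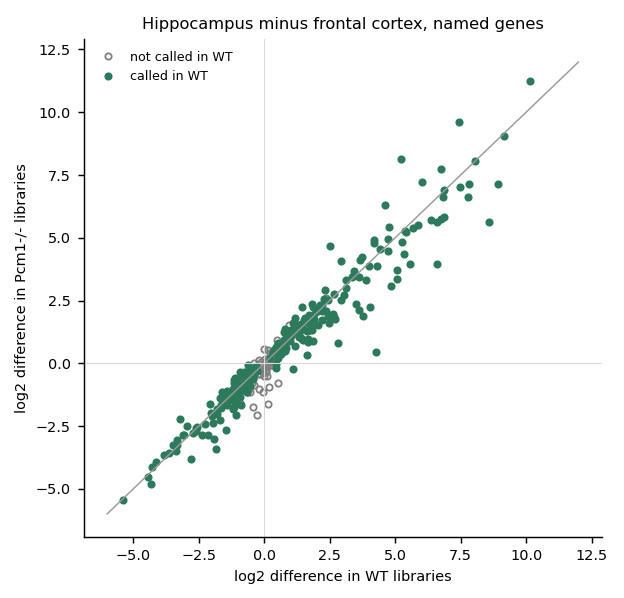
Log2 difference, hippocampus minus frontal cortex, in the WT libraries (x axis) and in the Pcm1-/- libraries (y axis) for the 294 named genes, with filled points for those called in WT and a line of equal values. Of 242 called genes, 239 have the same sign in both genotypes, and the genes were chosen in part by their WT values.

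The libraries were stranded but the strand setting of the counting was not given in the sources used here. Exons of Aldh1l1, Amigo2, Bcl6, Bdnf, C1ql3, Cabp7, Ccn2, Cux1, Drd5, Dsp, Dusp1, Emx2, Epha6, Gabra5, Grm2, Hes5, Homer3, Hrh3, Hs3st2, Jun, Junb, Lef1, Man1a, Map3k15, Mfrp, Myl4, Neurod1, Nos1, Nr2f1, Nr2f2, Nr3c2, Otx2, Pou3f1, Prox1, Shox2, Sulf2, Syt6, Wnt11 and Zbtb20 overlap a gene on the other strand in the annotation, so the reads of both could not be told apart for these genes if the counting ignored strand.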

How the data were processed

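The authors extracted RNA with RNeasy columns, made stranded mRNA libraries with KAPA kits, trimmed reads with Trim Galore, aligned them with STAR to GRCm38 and counted uniquely aligned reads per gene with HTSeq. The strand setting is not given in the sources used here. The deposited files hold these raw counts, 1 file per library. Rows for unassigned reads were left out of library sizes. A gene was kept where any of the 18 libraries held 10 or more counts (17545 genes). The 6 WT libraries were fitted with edgeR 4.0.16 (R 4.3.3), using TMM factors of the 6 and quasi-likelihood F tests, with p-values adjusted by Benjamini-Hochberg across those genes. The interaction of tissue and genotype was fitted on the 12 hippocampus and frontal cortex libraries. The printed CPM use TMM factors of all 18 libraries. Standard errors were taken as the size of the log2 difference over the square root of F. Levels per kilobase used the joined length of all annotated exons of a gene, not the length of the transcript expressed.

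Genes were named by a rule: the 12 largest rises and falls among called genes averaging a log2 CPM of at least 3 with tissues that did not overlap, up to 6 members per direction of each list by p, all members of the field, layer, patterning, C1q-like and adjoining tissue lists, and Pcm1. Genes outside it are marked as named after their values were seen. Some genes that the rule names are not reported here. The members and lists were chosen with earlier results of these data known.

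Libraries with the same number came from the same animal by the animal number given to each library. In the WT libraries, their deviations from the tissue means correlated at 0.386, 0.348 and 0.280, against −0.291 to −0.057 for different numbers. The fit with the animal as a block was an alternative, as were DESeq2 1.42.0, limma-voom 3.58.1, other scalings and filters, fits with more libraries and leaving out each library. All pairs of libraries differed by more than sampling noise. Apart from those of the block fit, the p-values ignore the pairing by animal. They set the tissue difference against the spread between the 3 libraries within each tissue, estimated in part across genes. That spread includes differences between the animals. Low-count intervals cover counting error only.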

Additional observations from a re-analysis of the deposited data

Results flagged for a closer look

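Prag1, which encodes a pseudokinase scaffold, was picked out after the values were seen, because every hippocampal library moved one way in WT and the other way in Pcm1-/- mice. It lies on chromosome 8, 36094828 to 36147787, plus strand, in GRCm38, and Pcm1 on the same chromosome at 41239752 to 41332344. The mutant line came from gene-trapped embryonic stem cells and was backcrossed. Loss of Pcm1 and sequence linked to it therefore cannot be told apart here. In WT, Prag1 had 65.8, 50.2 and 64.4 CPM in the frontal cortex and 34.2, 34.1 and 28.9 CPM in the hippocampus (log2 difference −0.88 ± 0.12, edgeR adjusted p = 0.000998). In Pcm1-/- mice it had 57.9, 50.9 and 63.4 CPM in the frontal cortex and 70.9, 79.5 and 68.3 CPM in the hippocampus (log2 difference 0.35 ± 0.09, edgeR adjusted p = 0.015). The cortical libraries of the genotypes overlapped and the hippocampal ones did not. The difference between the genotypes was 1.23 on the log2 scale, with an edgeR adjusted p of 0.093 in the 12 libraries, 0.28 with the block and 0.026 in all 18. DESeq2 called it as well. Of 17545 genes tested, 30 had libraries apart in opposite directions in the genotypes, and Prag1 was the 1 of these called in WT. Prag1 was picked by this separation, and the interaction values come from the same libraries, so neither is separate support for it. How many genes would separate this way by chance was not tested.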

How the results depend on the processing

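Counts of genes higher and lower in the WT hippocampus, in all and at 2-fold or more, stayed within 1.5 times the values above under DESeq2, limma-voom, other scalings and filters, the replicate block and fits with more libraries. Leaving out 1 library gave 1636 to 2640 higher and 1618 to 2281 lower genes, and 993 to 1378 higher and 675 to 792 lower at 2-fold. The lowest counts came without frontal cortex replicate 2. An alternative added after the data were seen, without hippocampus replicates 1 and 3, gave 1345 higher and 1280 lower genes, 763 higher and 589 lower at 2-fold, with 1 library standing for the hippocampus and assumed to vary like the cortex. The replicate block, which pairs the tissues of an animal, gave 3516 higher and 3296 lower genes. Of 294 named genes it ended 0 calls and added 15. Only some of the list counts it moved are given with the lists. Among the others, it gave 13 lower interneuron genes, 11 lower neuropeptide genes and 9 lower pan-neuronal genes. GABA receptor genes were 4 higher and 7 lower with it, and amine receptor genes 8 and 13. Steroid and nuclear receptor genes were 6 higher and 9 lower, and Wnt genes 14 and 13. The interaction of tissue and genotype had 0 genes under edgeR, 1 in the fit of all 18 libraries, 41 under DESeq2 and 0 to 16 with 1 library left out. Tac2 and Nwd2 were −1.77 and −0.73 without hippocampus replicate 3, and across the libraries left out ran to 0.61 and 0.40. The cause of these changes was not tested.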
